A study of Mus musculus with 6 samples.

Results

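The genes described here encode non-collagen proteins of bone matrix and proteins of the osteocytes embedded in it. They were taken as a named list of 10 genes, Bglap, Bglap2, Ibsp, Dmp1, Spp1, Sparc, Phex, Mepe, Ifitm5 and Pdpn, out of 17830 genes in the deposited tables. All 10 were present, and 9 passed the filter on low counts. Mepe did not.

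The libraries were bulk RNA sequencing of cultured skull osteoblasts from 6-MO mice, 3 of control and 3 of APPswe genotype. Control mice were mOCN-Cre;Ai9, and APPswe mice were TgAPPswe mOCN-Cre;Ai9. Both groups therefore carried mOCN-Cre, in which an improved Cre is joined by a P2A peptide to the end of the endogenous Bglap reading frame, and Ai9, a reporter that makes tdTomato once Cre has acted. APPswe mice also carried a Cre-dependent human APP transgene with the Swedish mutation behind the CAG promoter. By the labels, skull bone fragments were cultured with ascorbate and β-glycerophosphate, which support mineralization, the outgrown cells were replated in a medium listed without these additives, and RNA came from tdTomato+ cells purified by flow cytometry. The tag on Bglap was shared by all libraries, the number of mice behind each library is not given in the sources used here, and p-values measure only the spread between these libraries, which may be technical.

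Osteoblasts lay down collagen and then secrete acidic, calcium-binding proteins that organise mineral within it, and those that become buried turn into osteocytes. Osteocalcin, encoded by Bglap and Bglap2, is a late osteoblast product that binds mineral through carboxylated glutamates. Osteopontin (Spp1), bone sialoprotein (Ibsp), dentin matrix protein 1 (Dmp1) and matrix extracellular phosphoglycoprotein (Mepe) form a family of integrin-binding phosphoproteins, whereas Phex is a membrane peptidase and Pdpn a surface glycoprotein of young osteocytes.

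Total counts per library ranged from 17263757 to 18398392, so that 3 counts, taken as the floor of detection, correspond to 0.167 to 0.173 CPM (counts scaled to one library size after TMM normalization), a floor that covers counting error only. Control replicate 2 stood apart from the other libraries. The standard deviation of its log2 CPM difference from control replicates 1 and 3 was 0.841 and 0.847, against 0.255 between those replicates and 0.201 to 0.263 between APPswe libraries. It also held 2 counts over 4 Y-linked genes, where the other libraries held 2257 to 3406, although the study describes its mice as male. The tests of the members are therefore given with and without it. For genes named from the lists or for their correlation, both log2 fold changes are given wherever its removal changed a call or a direction. Mouse App was 1119 ± 154 CPM (SD, n = 3) in control and 1037 ± 19.2 CPM in APPswe libraries (edgeR adjusted p = 0.507), which gives no check of the genotype labels because no separate count of the human transgene was made. Of 12 osteoblast markers all were detected in every library, and their median level was 14.4 to 21.9 CPM in control and 42.9 to 43.6 CPM in APPswe libraries. Their sum did not rise, at 9425 to 12730 CPM in control and 9477 to 10346 CPM in APPswe libraries. Without Col1a1 and Col1a2 the sum was 961 to 1294 CPM in control and 1747 to 1820 CPM in APPswe libraries. The median log2 fold change of the 12 markers was 0.66. The 14 macrophage markers had a median of 562 to 684 CPM in control and 406 to 443 CPM in APPswe libraries, so the sorted cells did not carry osteoblast transcripts alone.

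Bglap and Bglap2 lie next to each other on chromosome 3 (GRCm38, chr3:88383501-88384464 and chr3:88377736-88378699, minus strand) with Bglap3 at chr3:88368616-88372743, all within 15.8 kb. Their coding sequences are shown because reads from one can be assigned to the other. The GENCODE M21 reading frames are 288 bases each and differ at the 4 bases in capitals, an identity of 98.6%.
Bglap: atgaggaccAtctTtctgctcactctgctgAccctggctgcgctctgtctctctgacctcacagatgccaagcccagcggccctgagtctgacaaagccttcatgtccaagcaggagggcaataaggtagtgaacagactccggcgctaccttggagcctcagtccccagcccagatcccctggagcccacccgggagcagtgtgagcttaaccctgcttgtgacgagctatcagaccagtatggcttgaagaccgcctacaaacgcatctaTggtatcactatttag
Bglap2: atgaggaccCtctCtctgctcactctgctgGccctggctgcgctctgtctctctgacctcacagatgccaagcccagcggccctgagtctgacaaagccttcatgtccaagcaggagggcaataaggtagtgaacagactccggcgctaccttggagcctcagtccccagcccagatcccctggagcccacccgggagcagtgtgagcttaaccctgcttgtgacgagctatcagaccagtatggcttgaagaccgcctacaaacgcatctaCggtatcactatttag
Of the 50-base windows in the Bglap transcript, 74.7% were also found in the Bglap2 transcript, and of those in the Bglap2 transcript 69.2% were found in Bglap. The read length and the treatment of reads that match both genes are not given in the sources used here, so the split between these genes is uncertain and their sum is given too. Bglap3 was 95.5% identical to Bglap and 96.9% identical to Bglap2 over the reading frame.

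Dmp1 (chr5:104202613-104214102), Ibsp (chr5:104299171-104311469), Mepe (chr5:104325329-104338611) and Spp1 (chr5:104435118-104441050) lie on the plus strand of chromosome 5. Together with Dspp, a tooth dentin gene that is absent from the deposited counts, they span 270.3 kb. The promoter windows of Bglap, Dmp1 and Spp1 are shown because these are the tested members that hold a Runx-type motif (ACCACA, or TGTGGT on the other strand), which bone transcription factors of the Runx family can bind. Each is a RefSeq window (GRCm38.p6) of 240 bases that ends 11 bases before the transcription start, with the motif in capitals. The windows are chr3:88384477-88384716 on the minus strand for Bglap, chr5:104202367-104202606 on the plus strand for Dmp1 and chr5:104434861-104435100 on the plus strand for Spp1.
Bglap: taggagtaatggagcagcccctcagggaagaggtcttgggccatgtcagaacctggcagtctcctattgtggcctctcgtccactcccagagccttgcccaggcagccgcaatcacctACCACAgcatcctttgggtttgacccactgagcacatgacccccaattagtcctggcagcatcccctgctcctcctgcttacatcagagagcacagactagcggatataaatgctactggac
Dmp1: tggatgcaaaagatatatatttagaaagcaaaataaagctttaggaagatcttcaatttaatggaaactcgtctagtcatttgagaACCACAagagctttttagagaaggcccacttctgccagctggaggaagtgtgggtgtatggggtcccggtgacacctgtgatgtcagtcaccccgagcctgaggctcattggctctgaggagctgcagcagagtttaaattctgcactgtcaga
Spp1: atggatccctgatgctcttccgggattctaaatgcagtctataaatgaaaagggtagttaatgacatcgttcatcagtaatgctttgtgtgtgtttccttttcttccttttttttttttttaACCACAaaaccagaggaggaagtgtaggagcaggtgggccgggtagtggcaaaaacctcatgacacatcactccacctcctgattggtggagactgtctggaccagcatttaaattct
The motif began 132 bases before the start of Bglap, 164 before that of Dmp1 and 128 before that of Spp1. Mepe held it on each strand, the other annotated starts of Dmp1 and Spp1 did not hold it, and neither did the windows of Ibsp, Sparc, Phex, Ifitm5 and Pdpn. Bglap2 had no entry. Of 32851 RefSeq promoter windows of the same length 13.6% held the motif, which overlaps no other motif searched, and a match describes letters only.

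Levels were compared between members as FPKM, the authors' values scaled for gene length and depth, because CPM does not account for length. In every library Spp1 was the most abundant member. It stood at 7810, 5102 and 7565 FPKM in control replicates 1, 2 and 3, ranks 4, 6 and 4 of 17830 genes. In APPswe libraries it stood at 3291, 3049 and 3102 FPKM, ranks 20, 24 and 23. Sparc came next, with ranks of 57 to 75 in control and 35 to 37 in APPswe libraries. Spp1 therefore exceeded Sparc by 3.54 to 6.23 times in control and by 1.21 to 1.30 times in APPswe libraries, and the ranges of this ratio did not overlap.

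Pdpn followed in both groups, at 153 to 160 FPKM in control and 105 to 108 FPKM in APPswe libraries. Bglap2, Bglap and Ibsp were next where they were expressed. Bglap and Ibsp changed places between libraries of the same group (39.7 and 48.9 FPKM in control replicate 1, 51.3 and 44.1 FPKM in control replicate 3), so their order did not exceed their spread. Dmp1 lay above Ifitm5 in control replicates 1 and 3, at 5.90 and 5.53 against 2.19 and 1.92 FPKM. In APPswe libraries Dmp1 lay below Ifitm5, at 0.28 to 0.36 against 1.92 to 2.85 FPKM. Phex stayed at 0.03 to 0.17 FPKM throughout.

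**Figure D1:**
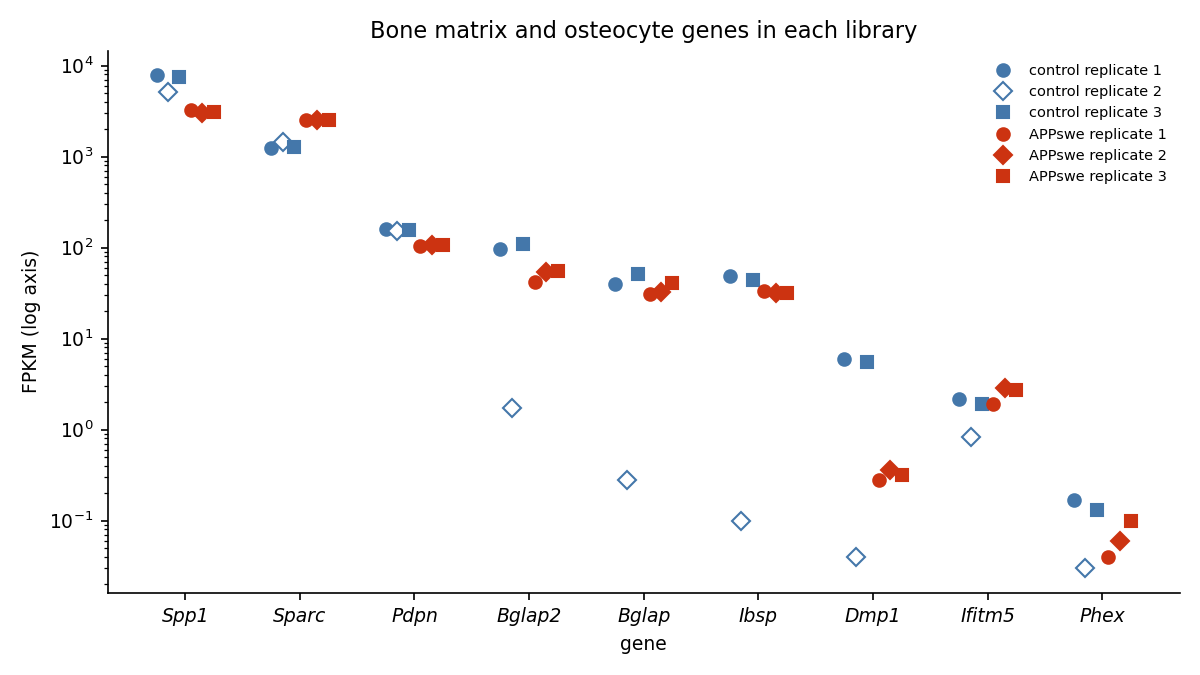
Level of 9 members in each of the 6 libraries, as FPKM on a log axis, with control and APPswe libraries as separate points; Mepe is left out because it is at 0 or blank in all libraries but 1. Control replicate 2 lies far below its group in Bglap, Bglap2, Ibsp and Dmp1, whereas for Spp1 the 3 APPswe libraries (3049 to 3291 FPKM) lie below all control libraries (5102 to 7810 FPKM).

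Bglap was counted 159, 1 and 204 times in control replicates 1, 2 and 3, and 115, 128 and 159 times in the APPswe libraries. After normalization these were 9.18, 0.06 and 11.5 CPM in control and 6.45, 7.13 and 8.93 CPM in APPswe libraries. The 1 read in control replicate 2 (exact 95% Poisson interval 0.0253 to 5.57 counts, counting error only) set that library apart from all others, and the remaining control libraries lay just above the APPswe range. With all libraries the log2 fold change of APPswe against control was 0.12 ± 1.00 (standard error; edgeR quasi-likelihood test with Benjamini-Hochberg adjustment over 13484 genes, adjusted p = 0.945). Without control replicate 2 it was -0.46 ± 0.16 (edgeR adjusted p = 0.0337), a level 1.38-fold lower in APPswe libraries, short of the 2-fold limit for a call.

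Bglap2 was counted 379, 7 and 424 times in control and 150, 206 and 206 times in APPswe libraries. The corresponding levels were 21.9, 0.39 and 23.9 CPM in control and 8.41, 11.5 and 11.6 CPM in APPswe libraries. As with Bglap, control replicate 2 was low, with 7 reads (interval 2.81 to 14.4), and the other control libraries lay above every APPswe library. The log2 fold change was -0.55 ± 0.98 with all libraries (edgeR adjusted p = 0.721) and -1.12 ± 0.13 without control replicate 2 (edgeR adjusted p = 4.95e-05), 2.18-fold lower in APPswe libraries and called.

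Summed over both genes, osteocalcin was 31.1, 0.45 and 35.4 CPM in control and 14.9, 18.6 and 20.5 CPM in APPswe libraries. This sum does not depend on how shared reads were divided between these genes. Shared reads that were discarded, or assigned to Bglap3, would be missing from it. Its log2 fold change was -0.31 ± 1.01 (edgeR adjusted p = 0.851), and -0.88 ± 0.12 without control replicate 2 (edgeR adjusted p = 0.000195). The count of Bglap2 over that of Bglap was 2.38 and 2.08 in control replicates 1 and 3 and 1.30 to 1.61 in APPswe libraries, while control replicate 2, with 7 and 1 reads, gives no usable ratio. Bglap3, the related gene expressed outside bone, had 26, 2 and 26 counts in control and 17, 5 and 9 in APPswe libraries, and its log2 fold change was -0.82 (edgeR adjusted p = 0.51), or -1.35 without control replicate 2 (edgeR adjusted p = 0.0146).

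Among the integrin-binding phosphoproteins, Spp1 was the member whose lower level in APPswe libraries did not rest on any single library. It was counted 161303, 108373 and 161342 times in control and 65839, 62317 and 63071 times in APPswe libraries. In CPM these were 9315, 6092 and 9106 in control and 3691, 3472 and 3544 in APPswe libraries. Each APPswe library was under each control library, control replicate 2 included, and the share of all counts that fell on Spp1 went from 0.598 to 0.914% in control to 0.355 to 0.381% in APPswe libraries. Spp1 fell 2.29-fold (log2 fold change -1.19 ± 0.17, edgeR adjusted p = 0.00466), and 2.57-fold without control replicate 2 (-1.36 ± 0.05, edgeR adjusted p = 1.44e-08).

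Spp1 is also made by macrophages. The 14 macrophage markers, all of them tested, summed to 18600 to 25615 CPM in control and 12958 to 13995 CPM in APPswe libraries. By adjusted p alone, at the 0.05 threshold, 8 were lower and 1 was higher. Cd68, a lysosomal macrophage protein, stood at -0.98 on the log2 scale (edgeR adjusted p = 0.00093). Lyz2, the abundant macrophage lysozyme, named after its values were seen, was at -0.83 (edgeR adjusted p = 0.0222), and at -1.02 and called without control replicate 2. None of the 14 markers is at 0 in any library (the lowest count is 234), and their part in the lower Spp1 level was not tested. In bulk libraries fewer cells of a type and less RNA per cell cannot be told apart.

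Ibsp, which nucleates mineral and binds cells through an integrin motif, was counted 1468, 3 and 1371 times in control and 985, 943 and 940 times in APPswe libraries. Its levels were 84.8, 0.17 and 77.4 CPM in control and 55.2, 52.5 and 52.8 CPM in APPswe libraries. The APPswe libraries were close together, between control replicate 2 at the floor (3 reads, interval 0.619 to 8.77) and the other control libraries. The log2 fold change with all libraries was -0.02 ± 1.14 (edgeR adjusted p = 0.994), and turned to 0.06 without TMM scaling. Without control replicate 2 it was -0.60 ± 0.07 (edgeR adjusted p = 6.11e-05), 1.51-fold lower in APPswe libraries.

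Dmp1, an osteocyte phosphoprotein that controls phosphate handling, had the widest difference of the members between APPswe libraries and control replicates 1 and 3. It was counted 261, 2 and 254 times in control and 12, 16 and 14 times in APPswe libraries. As CPM, the values were 15.1, 0.11 and 14.3 in control and 0.67, 0.89 and 0.79 in APPswe libraries. Control replicate 2, with 2 reads (interval 0.242 to 7.22), was below every APPswe library, so the groups overlapped. The log2 fold change was -3.64 ± 1.25 with all libraries and was not called (edgeR adjusted p = 0.0804), whereas the DESeq2 Wald test gave an adjusted p of 0.0430. Without control replicate 2 Dmp1 was 18.6-fold lower in APPswe libraries (-4.21 ± 0.16, edgeR adjusted p = 1.44e-08).

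Some endothelial markers, like Dmp1, were far higher in control replicates 1 and 3 than in any other library. Summed over 7 endothelial genes, each with at least 1 count in every library, they were 191, 27.2 and 197 CPM in control and 11.4, 10.1 and 11.7 CPM in APPswe libraries. Cdh5, the junction protein of endothelial cells, had 1009, 6 and 1126 counts in control and 32, 22 and 26 in APPswe libraries. Its log2 fold change was -4.76 (edgeR adjusted p = 0.054), and -5.34 without control replicate 2, where it was called. Emcn and Pecam1 had the same pattern, at -4.54 and -3.77 (edgeR adjusted p = 0.0695 and 0.0985), and were called at -5.12 and -4.36 without that library. Kdr, the vascular growth factor receptor, named after its values were seen, was instead highest in control replicate 2, at 453 counts against 188 and 224 in the other controls and 51 to 57 in APPswe libraries. It made up 25.5 of the 27.2 CPM of the list in that library and was the marker called lower with all libraries (-2.45, edgeR adjusted p = 0.00503). The part of such cells in the Dmp1 values was not tested. Mepe, which restrains mineralization, had 3 counts in control replicate 1 (interval 0.619 to 8.77) and 0 in each of the other libraries (upper limit 3.69), which allows no comparison at this depth.

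Sparc (chr11:55394500-55423183, minus strand), or osteonectin, binds both collagen and calcium and went the opposite way to Spp1. Its counts were 41778, 52084 and 45855 in control and 84206, 88378 and 88305 in APPswe libraries. These were 2413, 2928 and 2588 CPM in control and 4721, 4924 and 4962 CPM in APPswe libraries. Each APPswe library exceeded each control library, and control replicate 2 was the highest of the controls. Sparc rose 1.84-fold (log2 fold change 0.88 ± 0.09, edgeR adjusted p = 0.00192), and 1.95-fold without control replicate 2 (0.96 ± 0.06, edgeR adjusted p = 3.48e-07). It passed the test but not the 2-fold limit. The share of all counts on Sparc was 0.237 to 0.287% in control and 0.488 to 0.505% in APPswe libraries.

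Pdpn (chr4:143267431-143299564, minus strand), podoplanin, is needed for the dendrites of osteocytes and is also present on other stromal cells. Its counts were 4462, 4413 and 4489 in control and 2843, 2953 and 2968 in APPswe libraries. As CPM, they were 258, 248 and 253 in control and 159, 165 and 167 in APPswe libraries. Control replicate 2 lay close to the other controls here, and the groups were well apart relative to their spread (SD 4.82 and 3.78 CPM, n = 3 each). Pdpn fell 1.55-fold (log2 fold change -0.63 ± 0.07, edgeR adjusted p = 0.00177), again short of the 2-fold limit, and 1.56-fold without control replicate 2.

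Phex (chrX:157162075-157415312, minus strand), the peptidase mutated in X-linked hypophosphatemia, was close to the floor. It had 18, 3 and 14 counts in control and 4, 6 and 10 in APPswe libraries. Its levels of 0.67 ± 0.45 and 0.37 ± 0.17 CPM (SD, n = 3 each) overlapped. With all libraries the difference was -0.82 ± 0.67 on the log2 scale (edgeR adjusted p = 0.414), and -1.27 ± 0.41 without control replicate 2 (edgeR adjusted p = 0.0244), called on counts of 4 to 18. Ifitm5 (chr7:140948958-140950291, minus strand), an osteoblast membrane protein mutated in a form of brittle bone disease, had 18, 7 and 16 counts in control and 15, 23 and 22 in APPswe libraries. Its groups overlapped with and without control replicate 2, with log2 fold changes of 0.52 ± 0.40 (edgeR adjusted p = 0.387) and 0.21 ± 0.30 (edgeR adjusted p = 0.590).

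With all libraries, 1 of the 9 members tested was called lower, Spp1, and 0 were called higher. Among all 13484 genes tested 3.60% were called lower, 3.74% higher and 7.34% either way. By adjusted p alone 2 members were lower (Spp1 and Pdpn) and 1 was higher (Sparc), against 12.0% lower, 10.5% higher and 22.5% either way of all genes. The groups did not overlap for these 3 members, against 45.0% of all genes. The median log2 fold change was -0.55 over the 9 members and -0.0033 over all genes.

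Leaving out control replicate 2 changed the count of calls, and leaving out any other single library did not. In that comparison 4 members were called lower (Bglap2, Dmp1, Spp1 and Phex) and 0 higher, beside 6.58% lower, 4.87% higher and 11.5% either way of 13753 genes. By adjusted p alone 7 members were lower and 1, Sparc, was higher, beside 25.0% lower and 48.3% either way of all genes. The groups did not overlap for 8 of the 9 members, Ifitm5 being the exception, beside 66.2% of all genes. The median over the members was -0.64 against 0.01 over all genes.

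**Figure D2:**
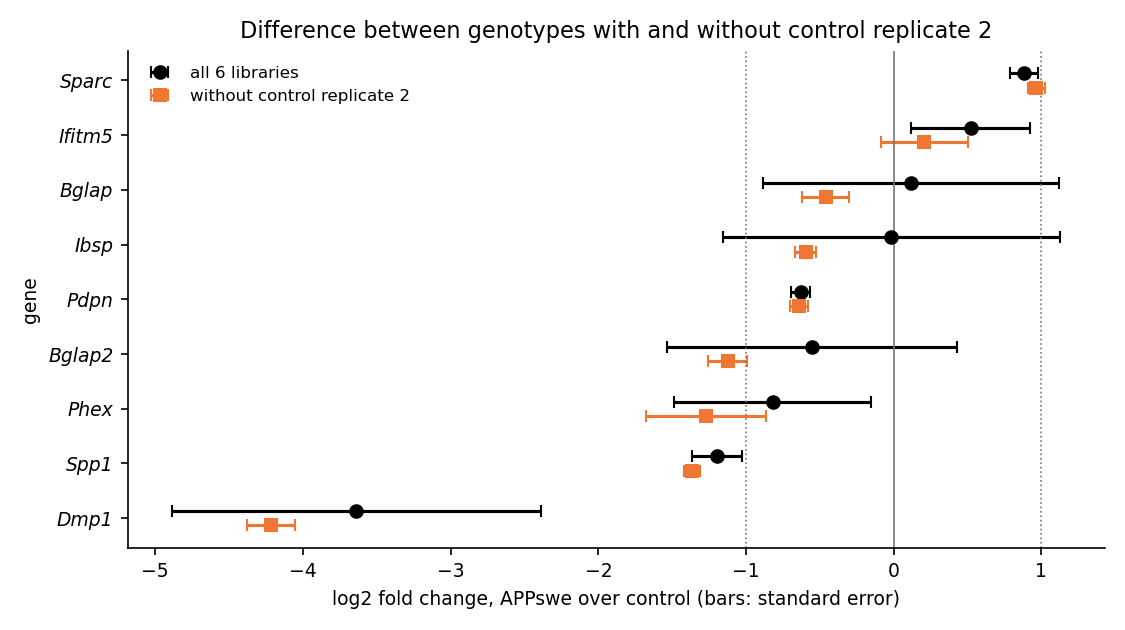
Log2 fold change of APPswe against control for the 9 members tested, with standard errors as bars, from all 6 libraries and without control replicate 2. The bars of Bglap, Bglap2, Ibsp and Dmp1 shorten without that library (Dmp1 from 1.25 to 0.16), while Spp1, Sparc and Pdpn stay at about the same place.

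Each member was also followed as every library was left out in turn. Spp1 remained between -1.36 and -1.09 and was called each time. Sparc and Pdpn passed the adjusted p threshold each time as well. Bglap ranged from -0.46 to 0.70 and Ibsp from -0.60 to 0.46, so that their direction turned, whereas Bglap2 stayed negative, from -1.12 to -0.09. The library names come in 2 styles, and the members were also compared within each. Control replicate 2 has the letter S in its name where the others have L, and no use was made of these letters. Among libraries named with a hyphen (control replicates 1 and 2, APPswe replicate 1) the log2 ratio was -1.06 for Spp1, 0.82 for Sparc and -0.67 for Pdpn. Among those in the other style (control replicate 3, APPswe replicates 2 and 3) it was -1.38, 0.93 and -0.61. Dmp1 was lower in both, at -3.50 and -4.09. Bglap (0.48 and -0.52) and Ibsp (0.38 and -0.55) had opposite signs in the styles, the first of which contains control replicate 2.

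**Figure D3:**
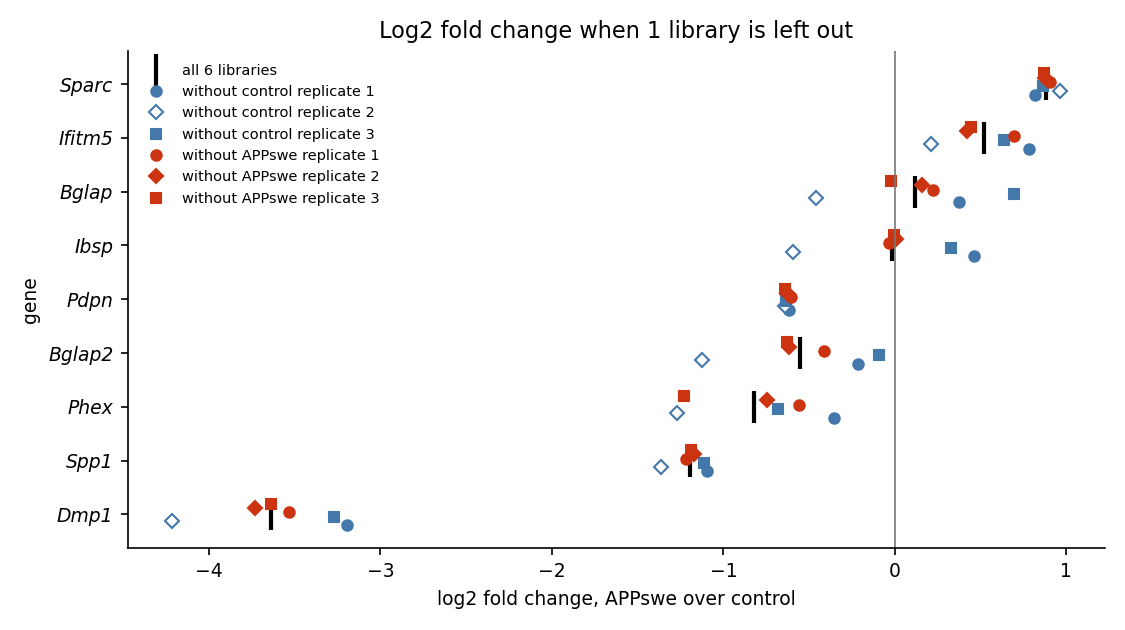
Log2 fold change of each member tested as each library is left out in turn, with the value from all libraries beside it. The points of Spp1 lie between -1.36 and -1.09, while those of Bglap and Ibsp fall on both sides of 0.

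Other genes of the pathway were counted on lists chosen with earlier results of these data known. Of 24 other non-collagen matrix genes 20 were tested, and 4 were called higher and 1 lower in APPswe libraries. Postn, which links collagen to other matrix proteins, rose by 1.52 on the log2 scale (edgeR adjusted p = 0.0097), and Aspn, a collagen-binding proteoglycan, by 1.60 (edgeR adjusted p = 0.028). Smoc1, a secreted relative of Sparc, had the largest value, 1.99, without passing the test (edgeR adjusted p = 0.12), and was called at 1.43 without control replicate 2 (edgeR adjusted p = 1.02e-06). Sparcl1, another Sparc relative, was the gene called lower (-1.24, edgeR adjusted p = 0.00454). Without control replicate 2 the calls became 3 higher and 4 lower, and Bglap3, Mgp (-1.18) and Dcn (-1.08) joined Sparcl1 among those lower. Fmod and Fbln1 went from 1.07 and 1.09 to 0.87 and 0.79 and lost their calls by the 2-fold limit alone. By adjusted p alone 12 genes were then higher and 6 lower, against 7 and 2 with all libraries. The median log2 fold change of the list was 0.53, against 0.59 with all libraries. Mgp, an inhibitor of calcification, and Dcn, a collagen-binding proteoglycan, were at -0.71 and -0.58 with all libraries (edgeR adjusted p = 0.430 and 0.579). Sparcl1, Mgp, Dcn, Fmod and Fbln1 were named after their values were seen. The 5 calls became 3 without control replicate 3 and 2 without any 1 of the APPswe libraries.

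Of 16 other osteocyte genes 11 were tested, and 1 was called higher, Npnt, a matrix ligand of an integrin (log2 fold change 2.02, edgeR adjusted p = 0.00041). Fbln7 was at -1.34 (edgeR adjusted p = 0.31), and without control replicate 2 it was called lower at -1.89 (edgeR adjusted p = 1.79e-06), which made 2 calls, 1 in each direction. Pth1r, the parathyroid hormone receptor, was at 1.09 (edgeR adjusted p = 0.13), and at 0.68 without that library (edgeR adjusted p = 0.000654). Sost, which encodes the osteocyte Wnt inhibitor sclerostin, had 0 to 3 counts in each library, as did Fgf23 and Dkk1, and none of these was tested. None of 8 mineralization enzymes and transporters was called. Alpl, the phosphatase that releases phosphate for mineral, had 752, 35 and 774 counts in control and 1332, 1295 and 1357 in APPswe libraries, and its log2 fold change was 1.32 (edgeR adjusted p = 0.29), or 0.77 without control replicate 2 (edgeR adjusted p = 7.14e-06). Slc20a1, a phosphate importer, was at -0.48 (edgeR adjusted p = 0.0977), and at -0.23 without control replicate 2 (edgeR adjusted p = 0.0124). Enpp1, which makes the mineral inhibitor pyrophosphate, was at 0.48 (edgeR adjusted p = 0.0678), and at 0.32 without it (edgeR adjusted p = 0.00348).

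Of the 12 osteoblast markers 1 was called higher, Sp7, the transcription factor osterix (log2 fold change 1.98, edgeR adjusted p = 0.020). There were 2 calls without control replicate 2, and 0 without control replicate 1 or without any 1 of the APPswe libraries. Runx2, an osteoblast factor that binds the motif shown above, was at 0.63 (edgeR adjusted p = 0.037). The collagen genes Col1a1 and Col1a2 were at -0.28 and -0.22 and did not pass the test (edgeR adjusted p = 0.19 and 0.21). Msx2, a homeobox factor, had 38, 289 and 44 counts in control and 22 to 24 in APPswe libraries, so its value of -2.45 (edgeR adjusted p = 0.078) rested on control replicate 2 and was -0.88 without it (edgeR adjusted p = 0.00641). Tnn, a tenascin, was at 1.72 (edgeR adjusted p = 0.10), and was called at 1.22 without control replicate 2 (edgeR adjusted p = 7.86e-07).

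Markers of other cell types were counted in the same way, and their part in the members' values was not tested. Of 7 osteoclast markers tested 4 were called higher, or 5 without control replicate 2, and the list summed to 158 to 290 CPM in control and 719 to 730 CPM in APPswe libraries, led by Mmp9 (log2 fold change 5.83), Acp5 (5.09) and Ocstamp (4.67). Of 9 skeletal muscle markers tested 9 were called higher, and the list rose from 4.06 to 14.1 CPM to 194 to 199 CPM, led by Ttn (5.86), Tnnt2 (5.66) and Myog (5.58), which were at 6.96, 6.25 and 5.98 without control replicate 2. Of 14 macrophage markers 1 was called higher, Aif1, and 1 lower, Cd14 (1.18 and -1.09). Without control replicate 2 these stood at 0.91 and -0.70 and lost their calls. The 2 macrophage calls became 1 without control replicate 2 (Lyz2) or APPswe replicate 3, and 0 without APPswe replicate 1 or 2. Of 6 endothelial markers tested 1 was called lower, and 5 were without control replicate 2. Of 5 cartilage markers tested 1 was called higher, Acan (3.39, edgeR adjusted p = 0.0158), and 0 were without any 1 of the APPswe libraries. Without control replicate 2, Sox9 was called too, at 1.77 against 1.15 with all libraries (edgeR adjusted p = 0.0762). Col2a1, with 2877 counts in control replicate 2 and 326 to 474 in the other libraries, turned from -1.39 to 0.44. The 1 neutrophil marker tested, S100a8, had 4 to 21 counts and was at 0.99 (edgeR adjusted p = 0.208), and was called without control replicate 1.

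**Figure D4:**
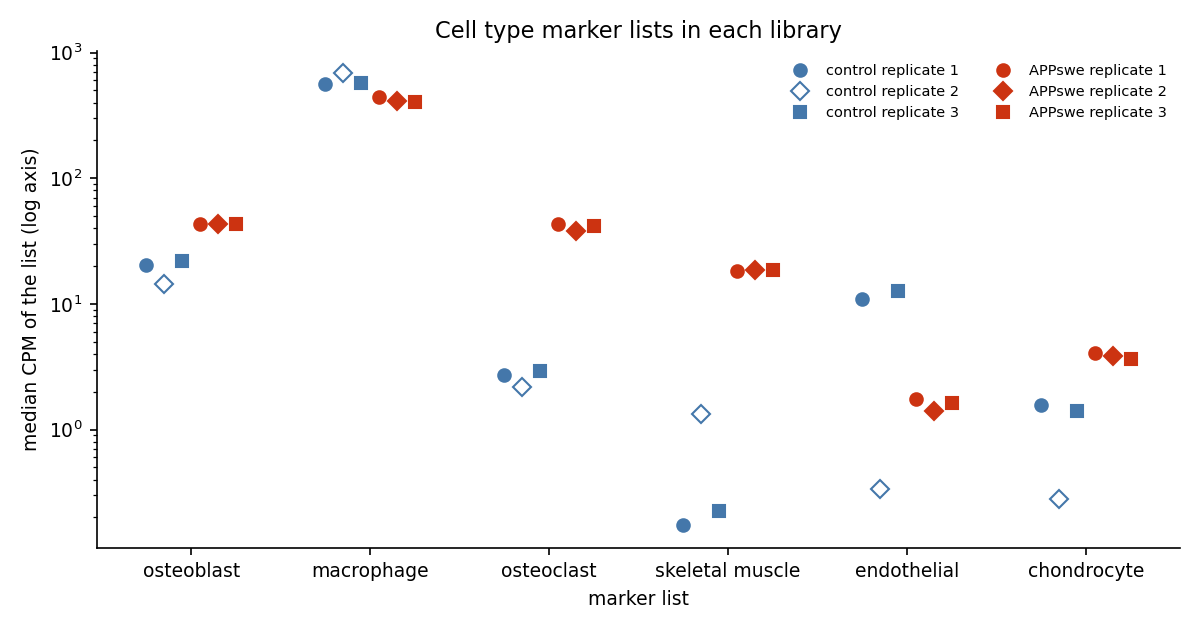
Median CPM of 6 marker lists in each library, on a log axis. The macrophage list lies at 406 to 684 CPM in all libraries, above the osteoblast list at 14.4 to 43.6 CPM, and the muscle and osteoclast lists are higher in the 3 APPswe libraries.

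The genes whose log2 CPM followed a member most closely over the 6 libraries were taken from 12215 genes whose log2 CPM averaged 1 or more. With so few libraries, split by genotype and by control replicate 2, a high Pearson correlation describes only this order of levels. For Spp1 the 5 closest were Tgfbr2, Sirpa, Ctsa, Lrp12 and Lmo2 (r of 0.9986 to 0.9994). Tgfbr2, a TGF-β receptor, was 414, 310 and 417 CPM in control and 205, 198 and 200 CPM in APPswe libraries. Its log2 fold change was -0.92 (edgeR adjusted p = 0.00431), and -1.04 without control replicate 2, where it was called (edgeR adjusted p = 1.54e-07). For Sparc they were Zfp512b, Mxra7, Rab30, Egr3 and Dio3 (r of 0.9979 to 0.9994), and Dio3, which inactivates thyroid hormone, was 13.2, 19.1 and 16.0 CPM in control and 68.8, 83.6 and 80.2 CPM in APPswe libraries. For Bglap they were Bsg, Pitx1, Sod3, Cxcl12 and Entpd2 (r of 0.9972 to 0.9986). The log2 fold changes of Bsg, Sod3, Cxcl12 and Entpd2 were 0.16, 0.39, 0.22 and 0.22. Without control replicate 2 they turned to -0.04, -0.15, -0.31 and -0.24, with no call in either comparison. Cxcl12, a chemokine of marrow stroma, was 808, 53.9 and 862 CPM in control and 649, 681 and 679 CPM in APPswe libraries, so its closeness to Bglap rests on control replicate 2.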

How the data were processed

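The 6 libraries were grouped by the genotype in the sample labels. The authors deposited read counts per gene without normalization, FPKM values that they computed and rounded, and log2 fold changes with p-values and q-values of their own comparison, which were not used here. Blank FPKM cells (397 genes in libraries named with a hyphen, 716 in the others) were read as 0. The submitters' processing notes name GRCm38, and the aligner, counting tool and annotation are not given in the sources used here. No library was left unassigned.

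Tests on counts used edgeR 4.0.16 in R 4.3.3. After TMM normalization and filterByExpr, 13484 of 17830 genes were compared by the quasi-likelihood test without covariates, with Benjamini-Hochberg adjustment over all of them. Called genes had an adjusted p no higher than 0.05 and differed at least 2-fold (1 on the log2 scale). Standard errors are the absolute log2 fold change divided by the square root of F. The text names all 10 members, from each list the 3 tested genes with the largest absolute log2 fold change, Bglap3, Col1a1, Col1a2, Runx2, Sp7, Alpl and Sost, and for Bglap, Spp1 and Sparc the 5 genes with the highest correlation. Lyz2, Kdr, Sparcl1, Mgp, Dcn, Fmod, Fbln1, Fgf23 and Dkk1 were named after their values were seen. The members and lists were chosen with earlier results of these data known. Alternatives were DESeq2 1.42.0, other scalings and filters, a replicate block, the library name style as a covariate, each library left out, and limma 3.58.1 on log2(FPKM + 1) or log2(FPKM + 0.1). The sum of Bglap and Bglap2 was added after the data were seen. The tests were also run on simulated counts. There no library stood apart from its group as control replicate 2 did, so this check does not cover the effect of that library. Promoter windows came from RefSeq and reading frames from GENCODE M21.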

Additional observations from a re-analysis of the deposited data

How the results depend on the processing

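The call of Spp1 held under all 16 alternatives, with log2 fold changes of -1.36 to -1.09 and adjusted p up to 0.0356, and 3 against 3 libraries cannot go below p = 0.1 in an exact permutation test. Members called lower (1 in the report) were 2 by DESeq2, 2 by adjusted p alone and 1 to 4 with a library left out, 4 being without control replicate 2, and members called higher (0) were 1 by adjusted p alone. The direction of Bglap, Bglap2 and Ibsp turned under some settings. Bglap (0.12) was at -0.032 with the library name style as a covariate and ranged from -0.46 to 0.70 with a library left out. Bglap2 (-0.55) was at 0.067 with the replicate block, 0.72 by limma on log2(FPKM + 1), with or without a filter, and 0.90 with a pseudocount of 0.1. Ibsp (-0.02) was at 0.060 without TMM, 0.78 with the replicate block, 1.30 by limma with a pseudocount of 1, with or without a filter, and 2.10 with 0.1, and ranged from -0.60 to 0.46 with a library left out. The cause was not tested.

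Same-numbered libraries deviated from their group means with correlations of 0.07, -0.04 and 0.16, and not every library correlated best with its own number. With 3 libraries per group and control replicate 2 far from the other controls, these values cannot decide whether the numbers pair the samples. With the replicate block Spp1 was at -1.17 (edgeR adjusted p = 0.0202), Sparc at 0.89 and Pdpn at -0.63, and Dmp1 at -2.88 (edgeR adjusted p = 0.239).

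Over all genes, calls higher (504) were 316 by limma on log2(FPKM + 1), 279 without a filter, 1414 by adjusted p alone and 281 to 670 with a library left out. Calls lower (486) were 185, 153 and 1622 under the same settings, 313 with a pseudocount of 0.1, and 230 to 905. Of the lists, the non-collagen matrix calls (5) were 3 with the style covariate, 2 by limma without a filter, 9 by adjusted p alone and 2 to 7 with a library left out. The osteocyte calls (1) were 2 by DESeq2, 4 by adjusted p alone and 1 to 2. The osteoblast calls (1) were 3 by DESeq2, 0 with the block, 2 by limma with either pseudocount, 4 by adjusted p alone and 0 to 2. The mineralization calls (0) were 1 by adjusted p alone. The macrophage calls (2) were 1 with the block, the style covariate or limma under any setting, 9 by adjusted p alone and 0 to 2. The cartilage calls (1) were 2 by DESeq2, without the low-count filter or by limma with a pseudocount of 0.1, 0 with the block or by limma with a pseudocount of 1, with or without a filter, and 0 to 2. The endothelial calls (1) were 3 by DESeq2 and 1 to 5, and the neutrophil calls (0) were 1 by DESeq2 and 0 to 1. Depth limits Mepe, Phex and Ifitm5. In control replicate 2 every member but Spp1, Sparc and Pdpn had 0 to 7 counts. The total of that library, 18134411 counts, lay within the range of the others, and the cause of its low counts was not tested.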
